A study of Gallus gallus with 14 samples.

Results

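The lncRNAs of the uterovaginal junction (UVJ) were compared between hens whose names start with JH and hens whose names start with JF. The prefix was read from the sample labels, no measured value was used to place a hen, and all 14 hens of the series entered the comparison. They were 8 JH hens and 6 JF hens. The hens were adult egg-type chickens (Gallus gallus) kept in single cages on 1 diet, artificially inseminated, and ranked for the duration of fertility (DF), which is the time over which fertile eggs are laid after insemination. The long-DF group held 4 JH hens (JH14, JH25, JH95 and JH104) and 3 JF hens (JF25, JF61 and JF64). The short-DF group likewise held 4 JH hens (JH49, JH68, JH109 and JH130) and 3 JF hens (JF21, JF40 and JF56), so that prefix and DF group were balanced. What the prefixes stand for and which strain the hens belonged to are not given in the sources used here. The line or family of the hens, their housing, and the day of sampling, library preparation or sequencing therefore cannot be told apart as the origin of any difference below. Each library was made from the UVJ of 1 hen, without pooling.

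The UVJ is the short band between the vagina and the uterus (shell gland) of the hen. Its mucosa holds the sperm storage tubules, blind epithelial pockets in which sperm survive after insemination and from which they are released over the following days. Long non-coding RNAs (lncRNAs) are long transcripts that are not predicted to encode a protein, and many are found in few tissues and at low levels. In the deposited annotation the unknown lncRNAs, which were assembled from these same libraries, fall into intergenic lncRNAs, lncRNAs that lie on the strand opposite to an exon of a gene (antisense), and lncRNAs that lie inside an intron (intronic). Known lncRNAs are those already held in public collections such as NONCODE. Antisense and intronic lncRNAs are named below with the gene they overlap, but the level of that gene was not analysed here. The library kit keeps the strand, while the strand setting of the counting is not given, so that reads of an antisense lncRNA and of its partner gene may not have been kept apart. Since the table holds lncRNAs only, the tissue label could not be checked against marker genes. In such bulk tissue, fewer cells of a type and less RNA per cell cannot be told apart.

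Of the 9977 lncRNAs in the table, 7297 reached an FPKM (the fragments of a lncRNA scaled to its length and to the size of the library) of at least 0.1 in at least 6 hens and were tested with edgeR's quasi-likelihood test, with the DF group as a covariate. A call needed a Benjamini-Hochberg adjusted p no higher than 0.05, an unadjusted p no higher than 0.01 and a log2 fold change of at least 2 in size. By this rule 225 lncRNAs were called, which is 3.08% of those tested. In JH hens 125 of them (1.71%) were higher and 100 (1.37%) were lower. The adjusted p alone called 504 lncRNAs (6.91%), 252 (3.45%) in each direction. Over all lncRNAs tested the median log2 fold change was 0.04, and the median of its size was 0.42, against 3.13 among the calls. The excess of calls higher in JH hens depended on the filter. Without any filter 102 calls were higher and 100 lower, and with the FPKM limit raised to 0.5 there were 97 and 62.

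Many of the called lncRNAs were near 0 in one prefix. In 152 of the 225, no hen of the lower prefix had more than 3 fragments. All 6 JF hens had 0 fragments of 30 called lncRNAs, and all 8 JH hens had 0 fragments of 11. The FPKM filter passed a lncRNA absent from JF hens if any 6 of the 8 JH hens had it. One absent from JH hens needed all 6 JF hens to pass. These counts are therefore partly set by the filter and cannot be set against each other. Their share over all lncRNAs tested was not computed. Where the lower prefix had 3 fragments or fewer over all its hens, a fitted fold change is no measure of size. For those lncRNAs the ratio of the summed fragments per unit of scaled library size was used instead, as a lower limit at 3 fragments over the whole group where a prefix was at 0, and with an exact (Clopper-Pearson) 95% interval where it had 1 to 3 fragments in all. These limits and intervals cover counting error only and leave out the spread between hens. They take each fragment as a separate molecule, although PCR copies cannot be told from separate molecules.

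**Figure D1:**
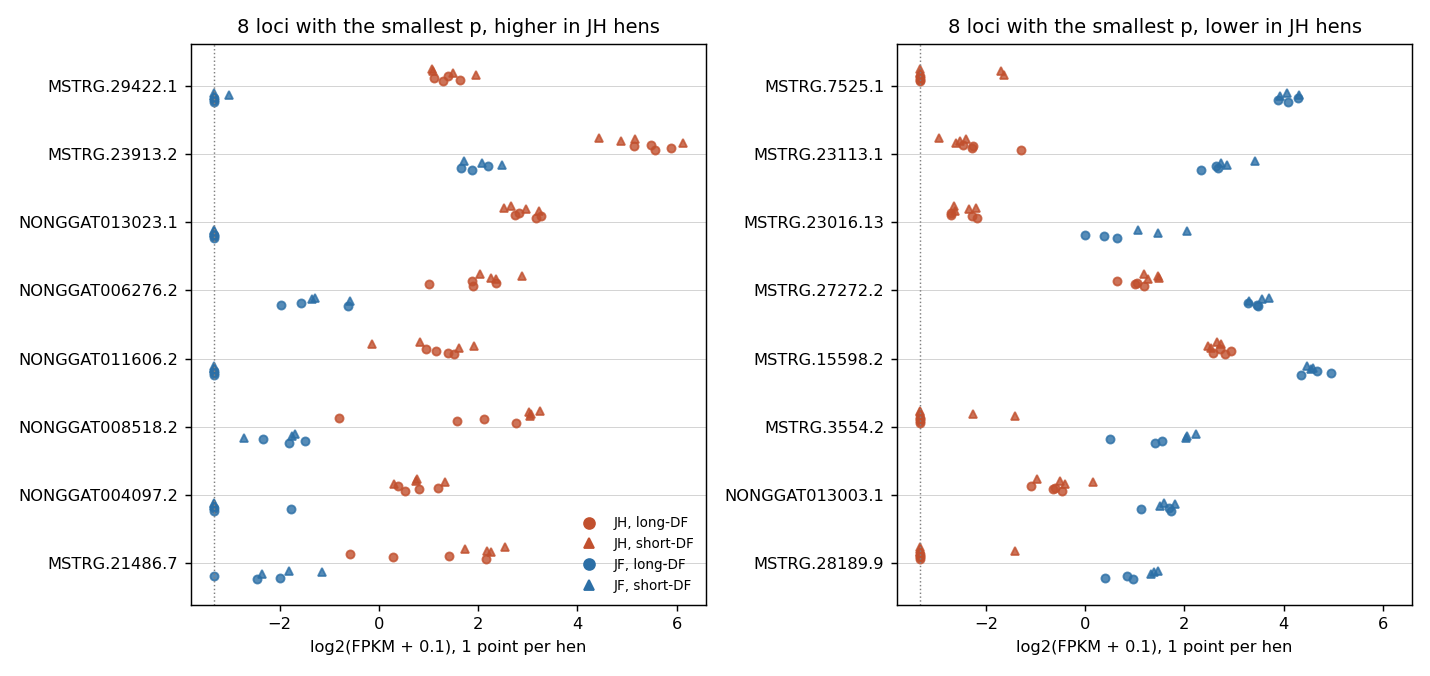
Levels of the 8 loci with the smallest p in each direction, as log2(FPKM + 0.1), with 1 point per hen, JH hens in red, JF hens in blue, circles for long-DF and triangles for short-DF hens; the dotted line marks an FPKM of 0. The 8 JH hens and the 6 JF hens do not overlap for any of the 16 lncRNAs.

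Of the lncRNAs higher in JH hens, the smallest p belonged to MSTRG.29422.1 (Galgal4 chrZ:10480521-10506963, plus strand, 5615 bases in 3 exons), which is antisense to PRLR, the gene of the prolactin receptor. The 8 JH hens had 70 to 125 fragments of it (median 90.5), and the JF hens had 0 except JF40, which had 1. The groups were far apart, and the ratio was 612 (95% interval 109.6 to 24214, edgeR adjusted p = 9.7e-08). The 2 other transcripts of the locus behaved in the same way. MSTRG.29422.3, also antisense to PRLR, had 28 to 72 fragments in JH hens (median 45.5) and 0 in every JF hen, at least 101-fold higher (edgeR adjusted p = 1.16e-05). MSTRG.29422.2, which lies in an intron of PRLR, had 8 to 42 fragments in JH hens (median 18.5) and 0 in every JF hen, at least 44.3-fold higher (edgeR adjusted p = 0.000204). All 3 were called in the long-DF hens and again in the short-DF hens. The transcripts overlap, so that the split of fragments among them is uncertain, while their near absence from JF hens does not depend on that split.

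A second locus of chromosome Z, at chrZ:965777-968760, held 3 known lncRNAs that were higher in JH hens. NONGGAT011606.2 had 14 to 76 fragments in JH hens (median 43.5) and 0 in all JF hens, at least 90.3-fold higher (edgeR adjusted p = 6.79e-05). NONGGAT011605.2, which shares its start and end with it, had 11 to 29 fragments in JH hens (median 18.5) and 1 to 5 in JF hens (median 2.5), a log2 fold change of 2.72 ± 0.33 (SE, edgeR adjusted p = 0.000252). The groups did not overlap for these 2. NONGGAT011607.2 had 0 to 9 fragments in JH hens, with 0 in JH14 and JH130, and 0 in all JF hens, at least 9.08-fold higher (edgeR adjusted p = 0.0459), and this call was lost without any 1 hen except JH14 or JH130, at edgeR adjusted p of up to 0.0838.

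Among the other lncRNAs higher in JH hens, NONGGAT013023.1 (chr1:167631613-167634190, 309 bases) was a known lncRNA with 11 to 21 fragments in JH hens (median 16) and 0 in every JF hen, at least 33.4-fold higher (edgeR adjusted p = 1.16e-05). MSTRG.23913.2, an intergenic lncRNA of 837 bases on an unplaced scaffold, was well expressed in both prefixes, with 113 to 350 fragments in JH hens (median 225) and 19 to 32 in JF hens (median 25). Its log2 fold change was 3.30 ± 0.26 (SE, edgeR adjusted p = 4.93e-06), and it was called in both DF groups. NONGGAT006276.2 (chr3:62472050-62479225) had 31 to 105 fragments in JH hens (median 62) and 3 to 10 in JF hens (median 5), a log2 fold change of 3.52 ± 0.34 (SE, edgeR adjusted p = 3.93e-05). The known NONGGAT004097.2 (chr2:61859579-61934510) was low throughout, with 4 to 11 fragments in JH hens and 0 in JF hens but for 1 fragment in JF61, a ratio of 42.5 (95% interval 7.30 to 1709, edgeR adjusted p = 0.000129). With the fragments of the 4 overlapping transcripts of its locus summed, the log2 fold change was 1.45 ± 0.22 (SE, edgeR adjusted p = 0.0006), short of the limit of 2 set for a call.

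On chromosome 7, neighbouring lncRNAs were higher together in JH hens. NONGGAT008518.2 (chr7:15777627-15780535) had 9 to 170 fragments in JH hens (median 121.5) and 1 to 6 in JF hens (median 4), a log2 fold change of 4.86 ± 0.54 (SE, edgeR adjusted p = 0.000125). MSTRG.21486.7, an intergenic lncRNA starting 1230 bases beyond its end (chr7:15781765-15784536, minus strand), had 6 to 54 fragments in JH hens (median 36) and 0 to 4 in JF hens (median 1.5), a log2 fold change of 4.33 ± 0.51 (SE, edgeR adjusted p = 0.000185). For both, JH104 was the lowest JH hen, with 9 and 6 fragments, and still above every JF hen. NONGGAT008512.2 and NONGGAT008513.2, whose locus ends 1562 bases before NONGGAT008518.2, were also called higher in JH hens. Lying this close together, these lncRNAs may be pieces of 1 transcript, which the table does not resolve.

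The lncRNA with the smallest p among those lower in JH hens was MSTRG.7525.1 (chr16:296713-338338, plus strand, 758 bases in 2 exons), antisense to ENSGALG00000013101, a gene without a symbol in the annotation. The JF hens had 80 to 113 fragments of it (median 99.5), while 6 JH hens had 0 and JH49 and JH109 had 1 each. The ratio of JF to JH hens was 369 (95% interval 101.8 to 3057, edgeR adjusted p = 9.83e-08). Chromosome 16 is a small chromosome that carries the major histocompatibility complex of the chicken. Inside an intron of the same gene lay MSTRG.7526.1 (chr16:299035-301256), which differed in the opposite direction. It had 7 to 108 fragments in JH hens (median 38) and 1 to 3 in JF hens (median 1.5), a log2 fold change of 4.48 ± 0.63 (SE, edgeR adjusted p = 0.000746). The groups overlapped for neither lncRNA. Summed over the locus, the log2 fold change was -0.82 ± 0.39 (SE, edgeR adjusted p = 0.232), which is no call.

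Calls in opposite directions were also found at 1 locus of chromosome 1. NONGGAT013003.1 (chr1:165060617-165063026) had 2 to 6 fragments in JH hens (median 3) and 14 to 20 in JF hens (median 17), a log2 fold change of -2.34 ± 0.21 (SE, edgeR adjusted p = 1.40e-05). NONGGAT013002.1, which overlaps it (chr1:165057831-165061633), had 3 to 6 fragments in JH hens (median 5) and 0 to 2 in JF hens (median 1), a log2 fold change of 2.41 ± 0.40 (SE, edgeR adjusted p = 0.00244). Here the sum over the locus gave -0.64 ± 0.17 (SE, edgeR adjusted p = 0.0265), too small a fold for a call. These were the only 2 loci with calls in opposite directions, out of 21 loci with 2 or more calls.

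MSTRG.23113.1 (chr9:11077713-11088371, 5255 bases), which lies in an intron of the known lncRNA NONGGAT009260.2, had 1 to 10 fragments in JH hens (median 3) and 209 to 396 in JF hens (median 261). Its log2 fold change was -6.11 ± 0.34 (SE, edgeR adjusted p = 9.83e-08), and JH14, with 10 fragments, was the highest JH hen. The known NONGGAT009259.2 of the same locus was lower in JH hens too, with 1 to 3 fragments against 8 to 15 in JF hens and a log2 fold change of -2.68 ± 0.27 (SE, edgeR adjusted p = 4.74e-05). MSTRG.23016.13, an intergenic lncRNA elsewhere on chromosome 9 (chr9:7720559-7731567), had 1 or 2 fragments in each JH hen and 18 to 82 in JF hens (median 34.5), a log2 fold change of -4.49 ± 0.28 (SE, edgeR adjusted p = 3.32e-07). This call was lost on the fragments summed over the 4 overlapping transcripts of its locus, with a log2 fold change of -0.33 ± 0.28 (SE, edgeR adjusted p = 0.571). For each of these 3 lncRNAs every JF hen was above every JH hen.

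MSTRG.15598.2 (chr3:51426591-51431522, plus strand) is antisense to EZR, the gene of ezrin, a protein that ties the actin cytoskeleton to the cell membrane in epithelial microvilli. It was expressed in every hen, with 53 to 82 fragments in JH hens (median 66) and 244 to 423 in JF hens (median 269). Its log2 fold change was -2.02 ± 0.14 (SE, edgeR adjusted p = 7.02e-07), just past the limit of 2 set for a call. Under the 22 alternatives tried its log2 fold change ranged from -2.08 to -1.77 and its adjusted p was at most 5.56e-06. It fell short of the limit of 2 in 7 of them, among them the fits without JF61, JH25, JH49 or JH68. MSTRG.3554.2 (chr1:177866626-177874932), an intergenic transcript, had 12 to 40 fragments in JF hens (median 32) and 0 in 6 JH hens, with 2 in JH49 and 1 in JH68, so that JF hens were higher by a ratio of 74 (95% interval 24.9 to 362, edgeR adjusted p = 8.36e-06). MSTRG.3554.1 of the same locus, antisense to chSAP18, was also called lower in JH hens, with at most 1 fragment in any JH hen and 2 to 26 in JF hens. The remaining lncRNAs of the 8 with the smallest p were intergenic transcripts on unplaced scaffolds. MSTRG.27272.2 had 3 to 6 fragments in JH hens and 20 to 28 in JF hens, a log2 fold change of -2.41 ± 0.16 (SE, edgeR adjusted p = 7.02e-07). MSTRG.28189.9 had 0 fragments in JH hens but for 1 in JH68, and 5 to 9 in JF hens, a ratio of JF to JH hens of 54.9 (95% interval 9.35 to 2217, edgeR adjusted p = 1.42e-05). Its call too was lost on the sum over its locus of 12 transcripts, where the log2 fold change was -0.19 ± 0.22 (SE, edgeR adjusted p = 0.711).

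For each of these 16 lncRNAs, a two-sided exact permutation test of log2(FPKM + 0.1), which exchanged the prefixes within each DF group, gave p = 0.000816. This is the smallest value that its 1225 splits can give, and it was reached by 100 of the 225 called lncRNAs. The 16 were picked for a small edgeR p in the same hens and do not overlap between the prefixes. The permutation p was therefore largely set by that choice and is not independent evidence. It was computed for called and named lncRNAs only, so no share over all lncRNAs tested can be given. In all, the FPKM of JH and JF hens did not overlap for 255 of the 7297 lncRNAs tested (3.49%), with 150 (2.06%) higher and 105 (1.44%) lower in JH hens. The FPKM are scaled by library totals that were smaller in JH hens, as given below, and only lncRNAs past the filter are counted. The part of the scaling and of the filter in this split was not tested.

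The DF groups share no hen, so each could be set against the other. Fitted alone, the 7 long-DF hens gave 37 calls (0.507% of those tested), 17 (0.233%) higher and 20 (0.274%) lower in JH hens. The main fit used the lncRNA fragments, scaled by TMM normalization, as library size. With the library totals in their place and no TMM normalization, this split became 18 higher and 12 lower. The median log2 fold change of all lncRNAs in the long-DF hens then moved up by 0.15. The 7 short-DF hens gave 73 calls (1.0%), 44 (0.603%) higher and 29 (0.397%) lower. Leaving out single hens changed these counts by more than 1.5 times in most cases. The long-DF count fell to between 13 and 22 without JH14, JH104 or any of the 3 JF hens. The short-DF count fell to between 16 and 34 without any 1 of its 7 hens.

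Most of these calls had the same direction in the other DF group. Of the 37 lncRNAs called in long-DF hens, 33 differed in the same direction in short-DF hens, 26 did so with an unadjusted edgeR p of at most 0.05, and 16 were called there too. Of the 73 called in short-DF hens, 69 had the same direction in long-DF hens, 52 of them with an unadjusted edgeR p of at most 0.05. None was called in opposite directions. Over all 7297 lncRNAs tested the direction was the same in 62.9%, and an unadjusted edgeR p of at most 0.05 was found for 13.0% in either DF group. The FPKM filter was set over both DF groups together. A lncRNA absent from JF hens, or from JH hens, passed it only if hens of both DF groups had it. For such lncRNAs the direction in the other DF group was fixed by the filter, so these counts are not a fully independent repeat. The 16 lncRNAs called in both DF groups were 6 higher and 10 lower in JH hens. The 6 were the 3 transcripts overlapping PRLR, NONGGAT011606.2, NONGGAT013023.1 and MSTRG.23913.2. Of the 10, MSTRG.7525.1, MSTRG.23113.1, MSTRG.23016.13, MSTRG.27272.2, MSTRG.3554.2 and NONGGAT013003.1 are described above, and the others were MSTRG.20363.3 (chr6:8657996-8661448), NONGGAT002668.2 (chr14:10148241-10148991), NONGGAT006568.2 (chr3:106803769-106804408) and MSTRG.27167.1 on an unplaced scaffold.

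**Figure D2:**
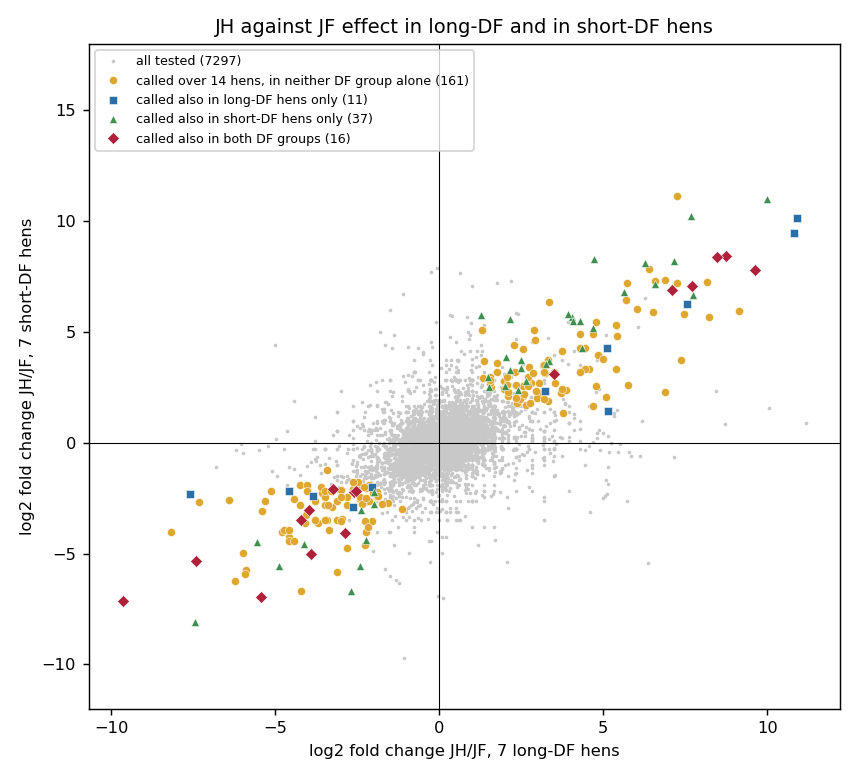
Log2 fold change of JH over JF hens in the 7 long-DF hens (horizontal axis) and in the 7 short-DF hens (vertical axis), for all 7297 lncRNAs tested in grey and for the 225 called over 14 hens in colour, by whether they were also called in the DF groups alone. Coloured points lie in the upper right and lower left only, while 16 of them are called in both DF groups and 161 in neither.

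Of the 225 lncRNAs called over all 14 hens, 188 had an unadjusted edgeR p of at most 0.05 in both DF groups, 64 were called in at least 1 of them, and all 225 had the same sign in both. Since the calls were made on both groups together, all of these counts are partly set by the rule and are no independent repeat. The share of all lncRNAs tested with such a p in both DF groups is not given here. Across the 7297 lncRNAs tested, the log2 fold changes of long-DF and short-DF hens had a Pearson correlation of 0.49, a description over lncRNAs that are not independent of each other.

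No lncRNA differed between the DF groups in the JH against JF effect at an adjusted p of at most 0.05 in edgeR's quasi-likelihood test of the interaction (0.0%). At an unadjusted p of at most 0.05 there were 324 (4.44%). The likelihood ratio test of edgeR gave 12 at the adjusted threshold and DESeq2 gave 5, while the quasi-likelihood test gave 1 without JF64, JF21 or JH49. The lowest interaction p belonged to NONGGAT003266.2 (chr18:4299372-4306889). In long-DF hens it was lower in JH, with 4 or 5 fragments against 18 to 29 in JF hens, while in short-DF hens JH had 13 to 29 and JF 13 to 15 fragments (interaction edgeR adjusted p = 0.0564). NONGGAT004913.2 (chr21:3621814-3629921) had 4 to 9 fragments in every JH hen and 5 to 7 in the long-DF JF hens, but 0 in the 3 short-DF JF hens (interaction edgeR adjusted p = 0.0564). MSTRG.838.1 (chr1:45396836-45405478), a long transcript antisense to the known lncRNA NONGGAT000320.2, had 235 to 1437 fragments in JH hens and 1099 to 1690 in the short-DF JF hens. The long-DF JF hens had 24 fragments or fewer of it, and JF25 had 0 (interaction edgeR adjusted p = 0.168).

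By class, 95 of 5161 known lncRNAs were called (1.84%), 93 of 1519 intergenic (6.12%), 26 of 463 antisense (5.62%) and 11 of 154 intronic ones (7.14%). By the adjusted p alone these shares were 4.94%, 11.7%, 12.1% and 10.4%. Calls in both directions were found in each class, with 50 higher and 45 lower known lncRNAs, 54 and 39 intergenic, 15 and 11 antisense and 6 and 5 intronic ones. Fitted alone, the long-DF hens called 13 known, 16 intergenic, 6 antisense and 2 intronic lncRNAs. The short-DF hens called 31, 30, 7 and 5 of these classes, and 5, 6, 3 and 2 were called in both. The classes also differed in level, with a median over lncRNAs of the mean FPKM of 0.674 for known, 1.40 for intergenic, 1.58 for antisense and 1.23 for intronic lncRNAs. The called share was 1.97% in the lowest and in the highest quartile of mean FPKM, and 4.06% and 4.33% in the quartiles between. The part of level, and of assembly from these same libraries, in the share of the unknown classes was not tested. Among known lncRNAs, none of the 33 with a RefSeq source and none of the 27 from Ensembl was called (at the adjusted p alone, 0 and 2).

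Of the 37 antisense and intronic calls, 21 overlapped a gene with a symbol, 10 an Ensembl gene without one, and 6 a known lncRNA. A further 4 are given here, chosen after their values were seen. MSTRG.5666.1, antisense to MAGI1, a scaffold protein of tight junctions, had 6 to 47 fragments in JH hens and 83 to 129 in JF hens, a log2 fold change of -2.14 ± 0.31 (SE, edgeR adjusted p = 0.000899). MSTRG.21258.2, antisense to COL6A2, which encodes a chain of collagen VI, had 0 to 46 fragments in JH hens, 0 only in JH14, and 0 in all JF hens. The sum over the 3 overlapping transcripts of its locus went the other way, lower in JH hens, with a log2 fold change of -1.20 ± 0.23 (SE, edgeR adjusted p = 0.00306). MSTRG.22005.1, antisense to KCNT2, a potassium channel subunit, had 1 to 4 fragments in JH hens and 0 in all JF hens. MSTRG.12198.2, antisense to TTLL10, a member of the tubulin ligase-like enzymes, had 111 to 246 fragments in JH hens and 0 to 77 in JF hens, a log2 fold change of 3.31 ± 0.62 (SE, edgeR adjusted p = 0.00487).

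The intronic lncRNAs with the smallest p among those higher in JH hens, beside the one in PRLR's locus, were MSTRG.7526.1, given above, MSTRG.6385.5 and MSTRG.4592.1. MSTRG.6385.5 (chr14:1267801-1270704), within the known lncRNA NONGGAT013469.1, had 5 to 420 fragments in JH hens (median 196.5) and 0 to 15 in JF hens (median 1), a log2 fold change of 5.89 ± 0.94 (SE, edgeR adjusted p = 0.00174). The groups overlapped through JH95, with 5 fragments, and JF25, with 15. MSTRG.4592.1 (chr10:19441622-19444177) lies in an intron of CTDSPL2, which encodes a phosphatase-like protein. It had 10 to 37 fragments in JH hens (median 22) and 3 to 9 in JF hens (median 4.5), a log2 fold change of 2.27 ± 0.37 (SE, edgeR adjusted p = 0.00196).

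**Figure D3:**
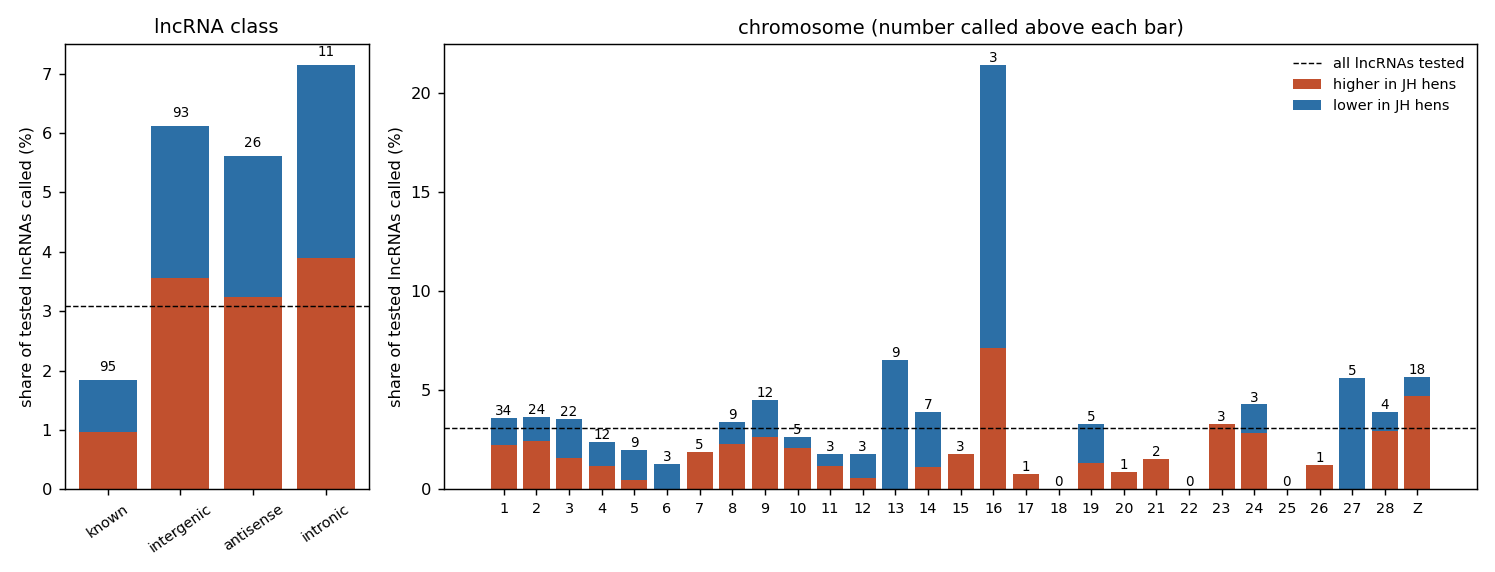
Share of the tested lncRNAs that were called, in percent, by class (left) and by chromosome (right), with calls higher in JH hens in red, calls lower in JH hens in blue, the number of calls above each bar, and the share over all tested lncRNAs (3.08%) as a dashed line. Chromosome 16 stands at 3 calls of 14 lncRNAs, which lie in 2 loci, neither of them called on its summed fragments. The 9 calls of chromosome 13 and the 5 of chromosome 27 are all lower in JH hens.

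By chromosome, the share called was 3.18% on chromosomes 1 to 5, 2.79% on 6 to 10, 2.52% on the smaller chromosomes without 16, and 3.33% on unplaced scaffolds. On chromosome Z, of which a hen carries a single copy, 18 of 318 lncRNAs were called (5.66%), 15 higher and 3 lower in JH hens. These fell into 13 loci, 10 higher and 3 lower, and the median log2 fold change of all lncRNAs of chromosome Z was 0.03. Fitted alone, the long-DF hens gave 8 calls on chromosome Z and the short-DF hens 6, with 4 lncRNAs called in both. At the adjusted p alone, 22 of the 318 were called (6.92%), against 6.91% of all lncRNAs tested. On chromosome Z, MSTRG.30180.3, antisense to EPB41L4A, had 3 to 13 fragments in JH hens and 0 in all JF hens, at least 16.8-fold higher (edgeR adjusted p = 0.00106), while the sum over its locus was no call, since its fold change was under the limit (edgeR adjusted p = 0.0139). MSTRG.30199.8, an intergenic lncRNA at chrZ:47228178-47236876, had 133 to 343 fragments in 7 JH hens, 0 in JH130 and 0 in all JF hens. Its overlapping transcript MSTRG.30199.4 had 735 fragments in JH130 and 1 in JH68.

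On chromosome 13, the 9 calls among 138 lncRNAs (6.52%, against 3.08% of all lncRNAs tested) fell into 7 loci, all lower in JH hens. The FPKM of JH and JF hens did not overlap for 3 of the 138 (2.17%), against 3.49% of all lncRNAs tested. On chromosome 27 this was so for 4 of 89 (4.49%). Of these loci, those of MSTRG.6305.5 and NONGGAT002478.2 lay 312 bases apart. Fitted alone, the long-DF hens gave 1 call on chromosome 13 and 0 on chromosome 27. The short-DF hens gave 1 and 2, and no lncRNA of either chromosome was called in both DF groups. MSTRG.6193.1 (chr13:14725469-14729811) had 0 to 4 fragments in JH hens and 18 to 69 in JF hens, a log2 fold change of -4.33 ± 0.57 (SE, edgeR adjusted p = 0.00047). NONGGAT002487.2 (chr13:17719625-17736337) was at 0 or 1 fragment in 7 JH hens and at 149 to 220 in JF hens, but at 123 in JH49, and its call was lost on the sum over its locus, at a log2 fold change of -0.18 ± 0.22 (SE, edgeR adjusted p = 0.727). The 5 calls among 89 lncRNAs of chromosome 27 (5.62%) were also lower in JH hens. They lay in 5 loci near the start of the chromosome, of which 4 were spaced by 22546 bases or less. NONGGAT005480.2 (chr27:206025-207293) had the smallest p of them, with 1 to 5 fragments in JH hens and 11 to 18 in JF hens and a log2 fold change of -2.10 ± 0.28 (SE, edgeR adjusted p = 0.000553). With the library totals as library size and no TMM normalization, chromosome 13 kept 9 calls and chromosome 27 had 4, all lower. Chromosome Z then had 15 higher and 3 lower. In the main fit, the adjusted p alone gave 10 lower and 3 higher on chromosome 13, and 8 lower and 1 higher on chromosome 27. The median log2 fold change of all lncRNAs tested was 0.03 on chromosome 13 and -0.01 on chromosome 27. Other chromosomes also had calls in 1 direction only, such as chromosome 7 with 5 of 262 (1.91%), all higher in JH hens. These 5 were the neighbouring lncRNAs described above, which may be pieces of 1 transcript, and MSTRG.21258.2. The summed locus of MSTRG.21258.2 went the other way, as given above.

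The 225 calls came from 198 loci of overlapping transcripts, of which 177 had 1 call and 21 had 2 or more. Neighbouring loci with calls in 1 direction and within 100 kb of each other formed 19 pairs, and the direction was the same in all 19. Loci with calls in both directions were left out of the pairs. Among them was the chromosome 16 locus of MSTRG.7525.1 and MSTRG.7526.1, near the called locus chr16:230768-273240. The share of all neighbouring loci tested with the same direction is not given here. Close pairs, such as MSTRG.10572.2 and MSTRG.10572.3 at 1968 bases, may be pieces of 1 transcript, so the 19 are not independent. When the fragments of each locus were summed, 166 of 5428 loci were called, 100 higher and 66 lower in JH hens. Of the 198 loci with a called transcript, 146 were called on the sum in the same direction. This was the case in all 105 loci with a single transcript in the table and in 41 of the 93 with more. In the 105 the sum is the count of the called transcript itself, so their result was largely fixed beforehand. Only the 93 put the call to a test.

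The locus with most calls was MSTRG.18307 (chr4:70553610-70596956, plus strand), an intergenic locus with 5 transcripts called higher in JH hens. Its most abundant transcript, MSTRG.18307.25, had 151 to 305 fragments in 6 JH hens, 0 in the short-DF hens JH109 and JH130, and 0 in all JF hens (edgeR adjusted p = 0.0162). MSTRG.18307.29, MSTRG.18307.23, MSTRG.18307.37 and MSTRG.18307.11 had between 8 and 139 fragments in the same 6 JH hens, and JH109, JH130 and the JF hens had at most 1 fragment of each. The JH hens were thus split at this locus, and the JF hens were not separated from JH109 and JH130. On the summed counts the log2 fold change was 9.19 ± 1.39 (SE, edgeR adjusted p = 0.000524). Behind it, 3 loci had 3 calls each, those of PRLR and of NONGGAT011606.2 on chromosome Z and MSTRG.20144 (chr5:57121457-57234814), where the 3 calls were lower in JH hens. Its transcript with most fragments among the calls, MSTRG.20144.4, had 0 to 13 fragments in JH hens (median 0.5) and 20 to 135 in JF hens (median 80.5), a log2 fold change of -4.26 ± 0.83 (SE, edgeR adjusted p = 0.00651). Summed over the MSTRG.20144 locus it was -2.94 ± 0.35 (SE, edgeR adjusted p = 6.88e-05).

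**Figure D4:**
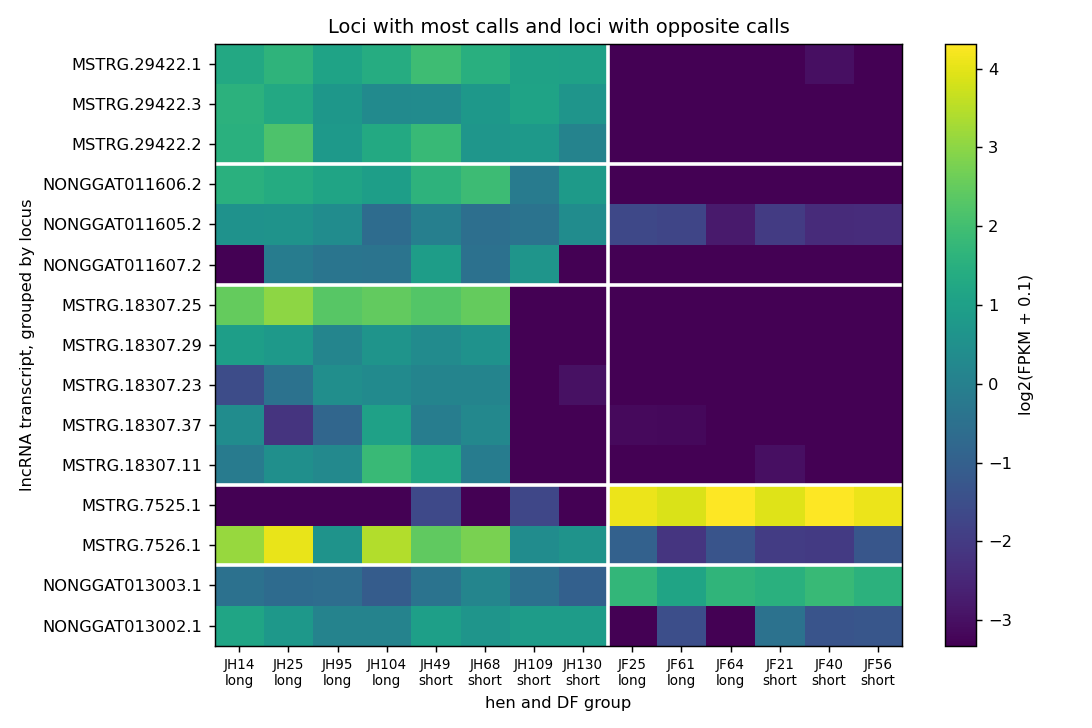
Level of each transcript (rows, grouped by locus between white lines) in each hen (columns, JH hens left and JF hens right of the white line), as log2(FPKM + 0.1) on the colour scale, for MSTRG.18307 with 5 calls, the 2 loci of chromosome Z with 3 calls each, and the 2 loci with calls in opposite directions. The PRLR transcripts fill all 8 JH columns, the MSTRG.18307 transcripts fill 6 of them, and MSTRG.7525.1 and MSTRG.7526.1 occupy opposite sides.

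Several of the lncRNAs that differed by prefix also stand on the lists that were drawn up on these same hens for the contrast of long-DF with short-DF hens. Of the list of 8 key lncRNAs, 5 were tested and 2 were called here, against 3.08% of all lncRNAs tested, MSTRG.2982.4 higher and MSTRG.24725.1 lower in JH hens. MSTRG.2982.4 (chr1:140700907-140714981, minus strand, 4713 bases) had 436 to 1614 fragments in 7 JH hens, but 1 in JH25. The JF hens had 0 or 1 fragment except JF61, which had 12, and the groups overlapped through JH25 alone. The log2 fold change was 8.53 ± 1.23 (SE, edgeR adjusted p = 0.000803). The neighbouring MSTRG.2975.1, at a distance of 96536 bases, had 14 to 52 fragments in the same 7 JH hens and 0 in JH25 and in all JF hens. MSTRG.2982.4 can be identified by the primer pair that was designed to amplify it in qPCR, whose measurements were not used here.
forward primer: ggtcccctctatagtaacgagt
reverse primer: ttccgttcttgatcatctggga

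MSTRG.24725.1, an intergenic lncRNA of 294 bases on an unplaced scaffold, had 4 to 11 fragments in JF hens (median 7) and 0 in every JH hen, at least 17.9-fold lower in JH hens (edgeR adjusted p = 0.00196). The 3 other tested lncRNAs of this list, MSTRG.28487.2, MSTRG.17455.2 and MSTRG.8138.1, overlapped widely between the prefixes, and their edgeR adjusted p lay between 0.318 and 0.631. MSTRG.23167.4, antisense to CLDN1, the gene of the tight junction protein claudin-1, was not tested, because 626 fragments in JF64 were the only ones in any hen. MSTRG.14719.6 and MSTRG.20950.12 were found in too few hens to be tested.

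Of the 20 leading lncRNAs of the DF contrast, 12 were tested and 4 were called (3.08% over all lncRNAs tested), all higher in JH hens, namely MSTRG.29422.1, MSTRG.7526.1, MSTRG.2982.4 and MSTRG.6385.5. That list gives these 4 as higher in long-DF hens. In JH hens, MSTRG.29422.1 had 80 to 120 fragments in the long-DF group and 70 to 125 in the short-DF group. For MSTRG.2982.4 these ranges were 1 to 1614 and 436 to 1401, and for MSTRG.6385.5 they were 5 to 243 and 153 to 420. Whether these lncRNAs differ between the DF groups was not tested here. Of the full list of the DF contrast, 126 were tested and 24 were called (19.0%, against 3.08% of all lncRNAs tested), 14 higher and 10 lower in JH hens, in 20 loci. The median size of the log2 fold change of JH over JF hens was 1.42 on this list, against 0.42 over all lncRNAs tested. The lists were chosen on the same libraries, so these counts describe them and are not independent evidence about either contrast.

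Some library values differed by prefix. The library total below was recovered from the deposited counts and FPKM. It is far below the mean numbers of raw reads that the study reports. The total therefore need not measure sequencing depth, which was not compared here. The library total that stands behind the FPKM was 6665190 ± 564982 fragments in JH hens (SD, n = 8) and 7619510 ± 624583 in JF hens (SD, n = 6, two-sided exact permutation p = 0.0114, Benjamini-Hochberg adjusted over 7 library values 0.04). The share of it on lncRNAs was 3.47 ± 0.21% in JH hens (SD, n = 8) and 3.15 ± 0.11% in JF hens (SD, n = 6, two-sided exact permutation p = 0.0049, adjusted 0.0343). The prefixes overlapped in both values, as JH95 and JH104 had shares within the range of the JF hens. The fragments on lncRNAs, on which the tests were run, were 213304 to 281892 in JH hens and 218627 to 266624 in JF hens (two-sided exact permutation p = 0.491). Between 6664 and 7159 lncRNAs had at least 1 fragment in a JH hen and between 6881 and 7177 in a JF hen (two-sided exact permutation p = 0.177). With the library total as library size and no TMM normalization, 233 lncRNAs were called, 141 higher and 92 lower in JH hens. Of these, 217 were among the 225. The median log2 fold change of all lncRNAs tested was then 0.14, against 0.04 in the main fit. The part of these library values in the calls was not tested.

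**Figure D5:**
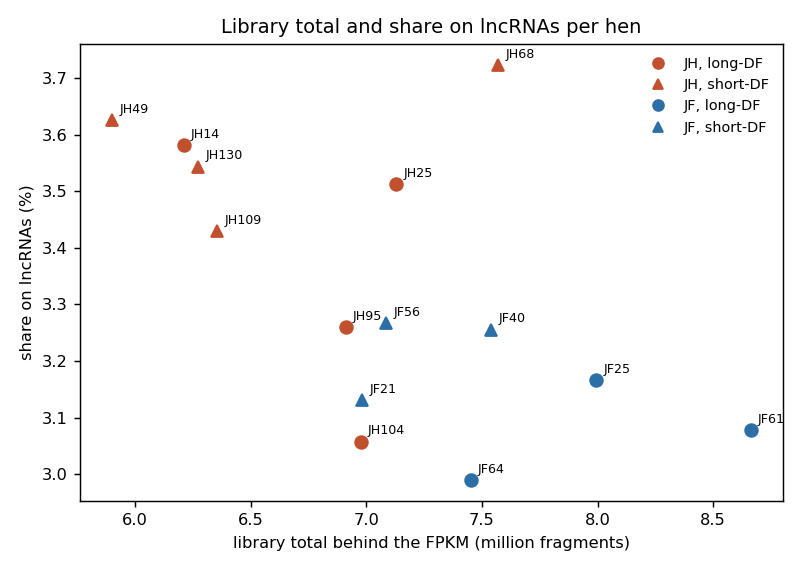
Library total behind the FPKM, in fragments (horizontal axis), and share of it on lncRNAs, in percent (vertical axis), with 1 point per hen, JH in red, JF in blue, circles for long-DF and triangles for short-DF hens. JH hens have the smaller totals and the larger shares on average, with JH95 and JH104 among the JF hens in share.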

How the data were processed

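Total RNA of the UVJ of 14 hens was sequenced, with 1 library per hen. The authors aligned paired reads to Galgal4 using TopHat. StringTie served for transcript assembly and Gffcompare for matching the transcripts to gene annotations, before filters on length, exon number and coding potential. The deposited table gives a raw count of fragments per lncRNA and hen, made by the authors without normalization. The counting tool and its strand setting are not given in the sources used here. It also gives FPKM values, for which the authors divided by the length of the transcript and the size of the library. That library size was recovered here for each hen as the total that turns counts into FPKM. A deposited annotation gives exons and classes.

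Counts were tested with edgeR 4.0.16 in R 4.3.3 (TMM normalization, quasi-likelihood F test, Benjamini-Hochberg adjustment over the 7297 lncRNAs whose FPKM reached 0.1 in 6 or more hens), over 14 hens with the DF group as covariate, within each DF group, and for their interaction. Standard errors were derived from the fold change and F. The thresholds were those of the study's methods. Single values were compared by two-sided exact permutation within DF groups, for lncRNAs on log2(FPKM + 0.1). Alternatives used DESeq2 1.42.0, limma 3.58.1, other filters and library sizes, counts summed over loci, and each hen left out. Python 3.11.15 with numpy 2.4.6, pandas 2.3.3, scipy 1.17.1 and matplotlib 3.10.9 was used otherwise. The scripts were checked on simulated counts.

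A rule chose the lncRNAs that are named, with 1 transcript per locus, namely the 8 of lowest p per direction, the 2 with the smallest p of a class not yet reached, 5 called in both DF groups, the 3 with the smallest interaction p, the 8 key lncRNAs, and the loci with most or with opposite calls. Others were named after their values were seen, for their class, chromosome or neighbours. The members, lists and tests were chosen with earlier results of these data known. Depth was 213304 to 281892 lncRNA fragments per hen, and a lncRNA without a fragment may have had up to 3.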

Additional observations from a re-analysis of the deposited data

Results flagged for a closer look

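Single hens stood apart from the others of their prefix by Dixon's test in 4 of the 57 groups of values tested, and chance flags about 1 group in 20. For MSTRG.23113.1, lower in JH hens, JH14 had an FPKM of 0.306, with the next JH hen at 0.110. For NONGGAT013003.1, also lower in JH hens, JH68 had an FPKM of 1.02, with the next at 0.654. For MSTRG.6385.5, higher in JH hens, JF25 had an FPKM of 0.713, with the next JF hen at 0.219. For MSTRG.2982.4, higher in JH hens, JF61 had an FPKM of 0.294, with the next JF hen at 0.0304. Each of these hens was the one of its prefix nearest to the other prefix.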

How the results depend on the processing

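Over 14 hens the 225 calls became 159 to 288 under the other filters, scalings, models and tests, except 24 with limma on log2(FPKM + 1). Leaving out each hen gave 188 to 231, and 142 of the 225 were called in all 14 such fits. In long-DF hens the 37 calls became 135 with DESeq2, 91 with a 4-group fit, 136 and 19 with limma at pseudocounts of 0.1 and 1, and 248 with the likelihood ratio test, and leaving out each hen gave 13 to 36. In short-DF hens the 73 calls became 117 with DESeq2, 137 and 27 with limma at pseudocounts of 0.1 and 1, and 238 with the likelihood ratio test, and leaving out each hen gave 16 to 34. The 16 repeated calls became 28 on summed loci, 57 with DESeq2 and, in alternatives chosen after seeing the data, 45 with the 4-group fit and 41 with limma at a pseudocount of 0.1. In this limma fit 1 lncRNA was called in opposite directions in the DF groups. The interaction gave 5 calls with DESeq2, 1 on summed loci, 12 with the likelihood ratio test, and 0 to 1 leaving out each hen. The causes were not tested. The number of lncRNAs with at least 1 fragment differed by -107.9 in JH against JF hens, but the number at an FPKM of at least 1 differed by 186.5, with neither difference past the test. The library total, the fragments and the share on lncRNAs, and the number of lncRNAs with at least 1 fragment kept their side of the threshold without any 1 hen, which was not run for the other library values. Of the 31 named lncRNAs that were called, 10 kept their call in all 22 alternatives, none changed direction, and 40 of 682 results fell short, 21 of them with limma at a pseudocount of 1. No paired analysis was possible because the hen numbers name hens and do not pair JH with JF hens. Depth limits the 152 calls with at most 3 fragments in each hen of the lower prefix.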
